A study of Mus musculus with 4 samples.

Results

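H3f3a, H3f3b and H1f0 are histone genes that lie outside the replication-dependent histone clusters, and all 3 were examined here, of 21883 protein-coding genes on assembled chromosomes. They were chosen by name, with their Pol II peaks already known, so the peak positions, lengths, covered shares and folds that follow are descriptions without a test. The assay was ChIP-seq of RNA polymerase II (Pol II), which sequences the fixed chromatin fragments that an antibody to Pol II pulls down. The cells were primary mouse osteoblasts, labelled young, grown out of bone pieces as mesenchymal stem cells and then kept in osteogenic medium. The samples were 1 Pol II library and 1 input of osteoblasts treated with OSS_128167, a SIRT6 inhibitor, and 1 Pol II library and 1 input of osteoblasts whose titles name WT and no treatment. The treatment field names OSS_128167 for all 4 samples, so the untreated group rests on those titles. The name of the peak list deposited for the OSS_128167 library contains SIRT6, whereas the antibody field names Pol II for both libraries. The lists are called Pol II peaks here on the strength of that field. Both Pol II peak lists were used, and the inputs were not analysed here on their own.

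Most histones are made mainly while DNA is copied, from clustered genes whose transcripts are not polyadenylated. Replacement histones are made throughout the cell cycle from separate, usually intron-containing genes with polyadenylated transcripts. H3f3a and H3f3b encode the same protein, the replacement histone H3.3, which chaperones such as HIRA place at active genes and ATRX with DAXX at repeats. H1f0 encodes the linker histone H1.0, which binds DNA between nucleosomes and accumulates in cells that have stopped dividing or have differentiated.

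The lists differed in size throughout. The OSS_128167 list held 40748 peaks, of which 6568 had an FDR (the authors' corrected p-value of a peak) of at most 0.05. The untreated list held 1694 peaks, of which 109 had an FDR of at most 0.05 and 1378 an FDR of 1. Depth is unknown, and each condition had 1 library, so no value below has a replicate error and differences between the lists compare 2 libraries. In such bulk material, Pol II on more cells and more Pol II per cell cannot be told apart. Of 9 osteoblast markers, 4 (Col1a1, Col1a2, Runx2 and Sparc) had a peak over the gene within that FDR limit in the OSS_128167 list, and 0 of 9 did in the untreated list. The others (Sp7, Alpl, Bglap, Spp1 and Ibsp) had 0 such peaks in either list. In the OSS_128167 list 2 of 5 macrophage and blood cell markers (Adgre1 and Cd68), 0 of 4 adipocyte and 0 of 4 endothelial markers had such a peak. At any FDR a peak lay over 5 of 9 osteoblast and 3 of 5 macrophage and blood cell markers in that list. A peak lay over 0 of 4 adipocyte and 3 of 4 endothelial markers, against 34.4% of protein-coding genes. No cell identity is read from these counts.

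All 3 genes had a peak inside or within 5 kb in the OSS_128167 list, as did 46.7% of protein-coding genes. At an FDR of at most 0.05 all 3 still had one, against 15.6% of protein-coding genes. In the untreated list only H3f3b had one, as did 2.71% of protein-coding genes, and at that FDR limit 0 of the 3 had one, against 0.142% of protein-coding genes. Pol II peaks lay over the gene itself in all 3 by the OSS_128167 list (34.4% of protein-coding genes) and in 0 of 3 by the untreated list (2.18%). Because these values chose the genes, nothing is read from the difference between 3 of 3 and these shares. The 3 genes carried different patterns in the OSS_128167 list. H3f3b lay under a single domain of very high fold that ran far past its 3′ end. H1f0 was mostly covered by a peak of moderate fold. H3f3a had separate short peaks gathered in its 5′ part.

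**Figure D1:**
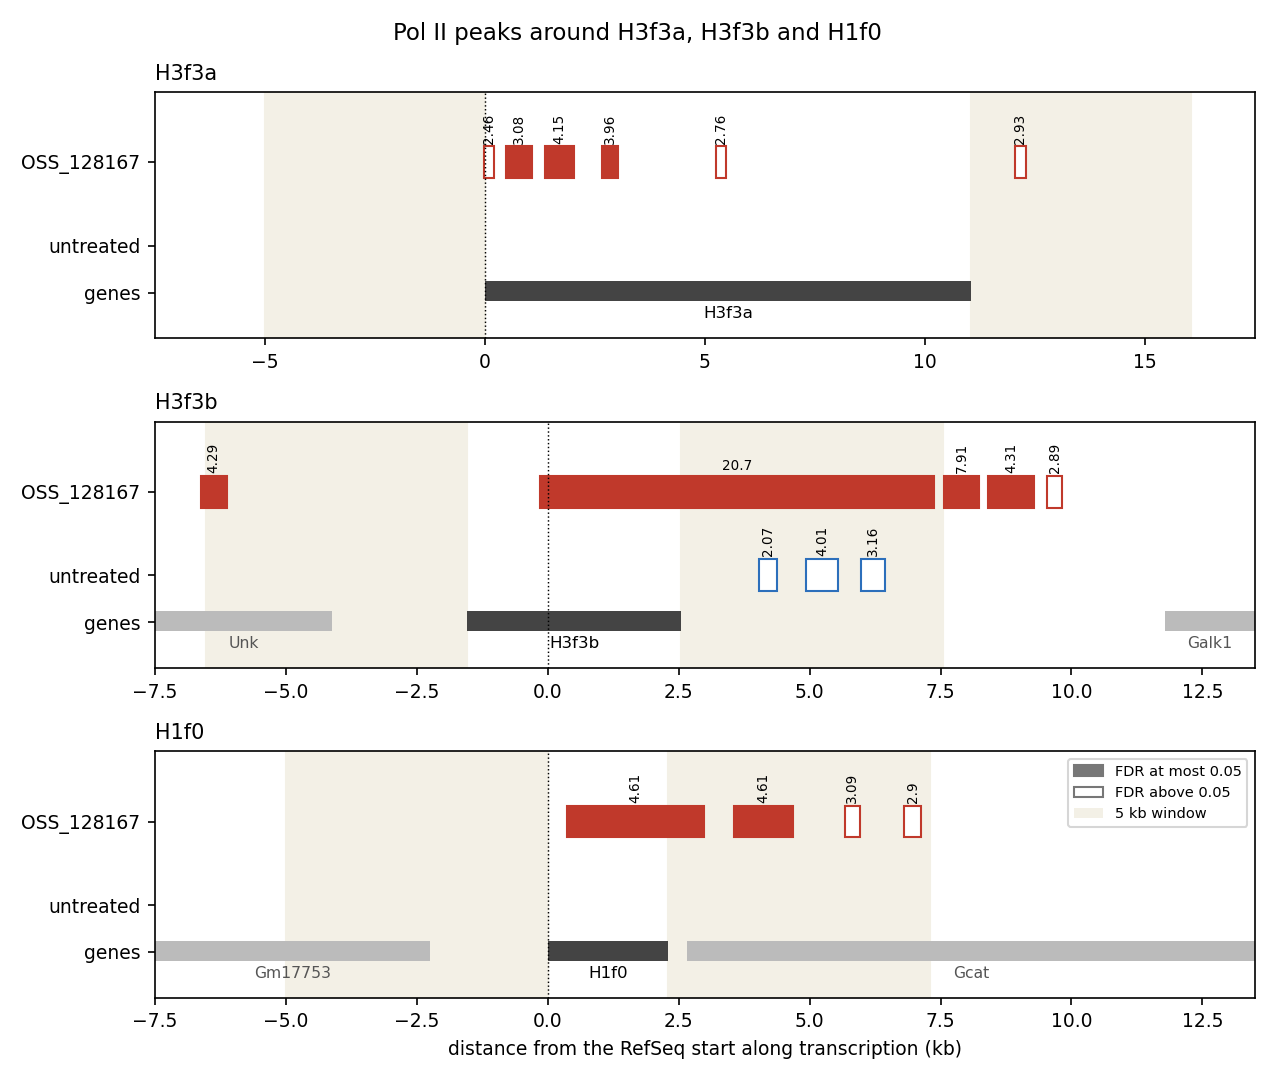
Pol II peaks around H3f3a, H3f3b and H1f0, drawn to scale against the distance in kb from the start in the RefSeq promoter table, with transcription to the right. Red boxes are peaks of the OSS_128167 list and blue boxes peaks of the untreated list, filled where the FDR was at most 0.05; the numbers are the authors' folds, dark bars the 3 genes, grey bars neighbouring genes and shading the 5 kb on either side. The 3 untreated peaks at H3f3b lie past the 3′ end, inside the OSS_128167 peak of 7528 bp.

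The regions just before the starts of the 3 genes differ in sequence, and peaks reached into some of them. They are shown because the start is the point from which the peak positions below are counted. Each run holds the 250 bases before the start, 5′ to 3′ on the gene's own strand, from the RefSeq promoter table of GRCm38.p6 (mm10), in which all 3 genes were found. Capitals mark matches to CCAAT (the CCAAT box), TATAAA (the TATA box), GGGCGG (the GC box), TGACG (the core of the cAMP response element), ATGCAAAT (octamer) and AAACACA (H1 box), searched on both strands; overlapping matches to GGGCGG were counted separately. The positions are chr1:180813606-180813855 (minus strand) for H3f3a, chr11:116024505-116024754 (minus strand) for H3f3b and chr15:79027962-79028211 (plus strand) for H1f0.
H3f3a: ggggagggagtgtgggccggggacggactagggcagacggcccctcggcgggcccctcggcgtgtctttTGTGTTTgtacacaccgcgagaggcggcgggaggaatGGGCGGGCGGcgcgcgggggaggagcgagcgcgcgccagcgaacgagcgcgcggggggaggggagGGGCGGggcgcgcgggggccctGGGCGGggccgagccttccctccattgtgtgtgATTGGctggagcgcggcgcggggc
H3f3b: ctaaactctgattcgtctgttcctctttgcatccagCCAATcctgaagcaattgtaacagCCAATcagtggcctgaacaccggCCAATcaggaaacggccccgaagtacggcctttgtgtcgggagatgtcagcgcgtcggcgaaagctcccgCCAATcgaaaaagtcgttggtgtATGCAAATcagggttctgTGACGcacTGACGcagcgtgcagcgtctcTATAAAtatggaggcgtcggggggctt
H1f0: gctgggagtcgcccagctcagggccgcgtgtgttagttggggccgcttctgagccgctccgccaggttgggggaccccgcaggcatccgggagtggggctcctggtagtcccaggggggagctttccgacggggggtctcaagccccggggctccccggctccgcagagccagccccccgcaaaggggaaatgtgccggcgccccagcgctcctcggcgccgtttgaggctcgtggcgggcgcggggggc

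The H3f3b sequence held 4 matches to CCAAT, and the last of its bases lay 210, 186, 163 and 93 bases before the start. At least 1 match was present in 33.8% of the 32851 promoters of the table, but 4 or more in 276 of them (0.84%). It also held 1 match to TATAAA, ending 22 bases before the start (12.4% of promoters), 2 matches to TGACG (at least 2 in 3.9%) and 1 to ATGCAAAT (1.6%). H3f3a held none of these except 1 reverse-strand CCAAT. It had 4 matches to GGGCGG (at least 4 in 4.09% of promoters) and 1 reverse-strand match to AAACACA (6.25%). H1f0 held none of the 6 motifs in this window. G and C made up 77.2% of these bases at H3f3a, 54% at H3f3b and 74.4% at H1f0, against a median of 52.4% over the table. In the OSS_128167 list peaks covered 18 of the 250 bases at H3f3a, 150 at H3f3b and 0 at H1f0, and in the untreated list 0 at each. A match describes letters only and does not show that a factor binds there.

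H3f3b (chromosome 11, 116021961 to 116026039 on mm10, minus strand, 4079 bp) had the third highest fold of the OSS_128167 list. Its peak ran from 116017127 to 116024654 over 7528 bp, with a fold of 20.7, a p-value of 3.71e-93, an FDR of 2.74e-86 and a pileup of 89. By length it ranked 15 and by p-value 4 among the 40748 peaks, whose median length was 278 bp and median fold 2.87. The fold and p-value are the authors' for the whole peak, and the lists do not say where in it the highest point lies. The peak began 150 bp before the start in the promoter table and ended 4834 bp past the 3′ end, so 2694 bp lay over the gene and 64.2% of its length lay past it. It covered 66% of the gene as bounded in the gene table. The 5′ boundary there lies 1535 bp before the start in the promoter table. Over the 2544 bp from that start to the 3′ end, coverage was 100%.

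Pol II peaks went on further past H3f3b than the 5 kb window shows. The next peak, from 116016273 to 116016938, lay 5023 bp from the gene and so just outside the window, with a fold of 7.91 and an FDR of 2.79e-15. It was followed by a peak of 876 bp with a fold of 4.31 (FDR 1.14e-05) and by one of 301 bp with a fold of 2.89 (FDR 0.159). Along the direction of transcription each of these 4 peaks thus had a lower fold than the one before it. Joined across gaps of up to 500 bp, these peaks reached 7284 bp past the 3′ end. Galk1, which encodes galactokinase and lies on the same strand downstream, began 1957 bp beyond the last of them and had 0 peaks in either list. On the other side, Unk, which encodes an RNA-binding zinc finger protein, had 1 OSS_128167 peak of 496 bp (fold 4.29, FDR 0.000264). That peak lay within 5 kb of the H3f3b boundary, but also inside Unk and 322 bp past the start of Unk, which is transcribed away from H3f3b.

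The untreated list had 3 peaks at H3f3b, all past its 3′ end. In the direction of transcription they began 1490, 2395 and 3442 bp past that end and were 336, 606 and 453 bp long. Their folds were 2.07, 4.01 and 3.16, and their FDR values 1, 0.0536 and 1. The middle peak had a p-value of 2.69e-07 and ranked 113 by p-value and 43 by length among the 1694 untreated peaks, just outside the 109 with an FDR of at most 0.05. All 3 lay wholly inside the OSS_128167 peak of 7528 bp, and no untreated peak touched the gene or the 1490 bp next to it. Together they covered 1395 bp of a stretch of 2405 bp. Folds are relative to each library's own background and cannot be set against each other, so whether Pol II density here differed between the conditions was not tested.

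At least 3 untreated peaks inside or within 5 kb were found at 72 protein-coding genes (0.329%), of which 5 had none over the gene. These 5 were H3f3b, Olfr775, Speer4d, Eif4enif1 and Gm51877. The highest fold among these peaks was 4.01 at H3f3b, 4.23 at the olfactory receptor gene Olfr775, 4.54 at Speer4d and 1.84 at each of Eif4enif1 and Gm51877. The lowest FDR was 0.0536 at H3f3b, 0.422 at Olfr775, 0.000459 at Speer4d and 1 at Eif4enif1 and Gm51877, so of the 5 only Speer4d had a peak with an FDR of at most 0.05. Speer4d belongs to a family of near-identical copies, whose reads cannot be assigned to a copy with certainty.

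**Figure D2:**
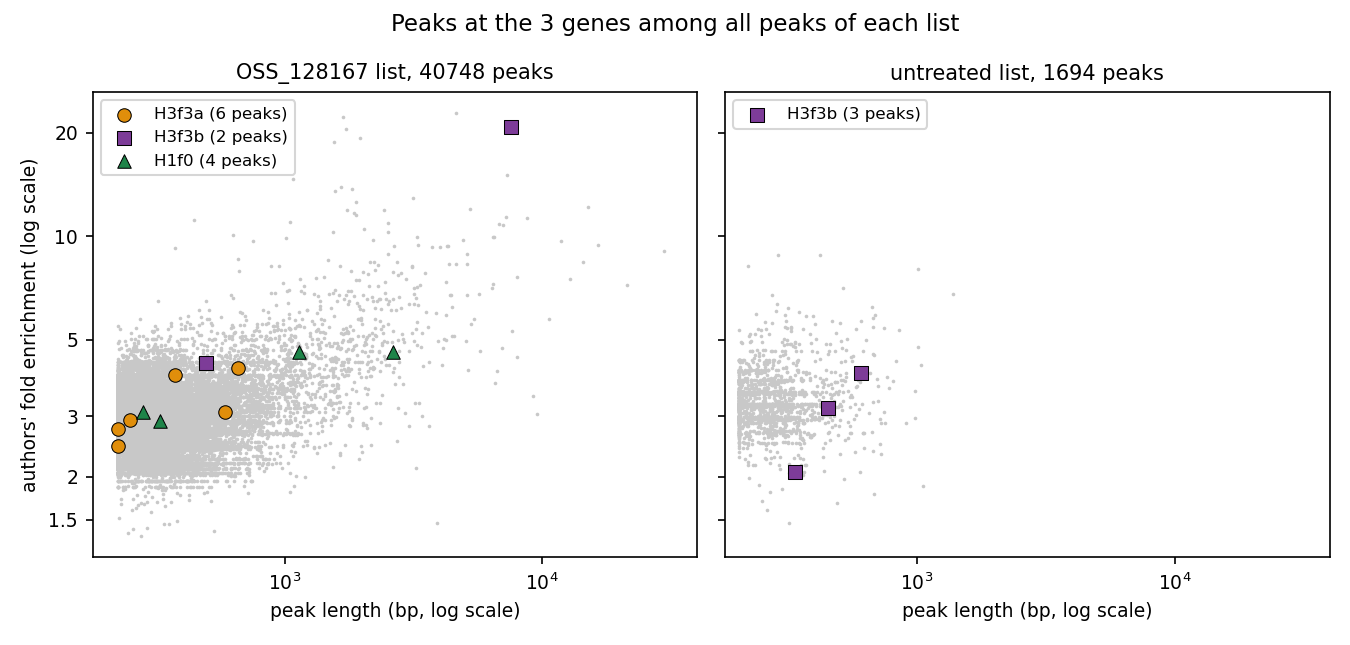
Authors' fold enrichment against peak length in bp, both on log scales, for every peak of the OSS_128167 list (left) and of the untreated list (right). Grey points are all peaks, and coloured points those inside or within 5 kb of H3f3a, H3f3b and H1f0. The H3f3b peak of 7528 bp and fold 20.7 lies at the upper right of the left panel, ranking 3 by fold and 15 by length, near peaks of the histone genes H3c14 (4628 bp, fold 22.8) and H3c15 (7289 bp, fold 15.1), while the 3 untreated H3f3b peaks lie among those of the right panel.

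A domain that runs on past the 3′ end was uncommon among genes. Strand was known for 17491 protein-coding genes, of which 6021 had an OSS_128167 peak over them and so could qualify. In that list a peak over the gene reached past the 3′ end in 426 of the 6021, by a median of 308 bp. It did so by at least 1000 bp in 97 (0.555% of the 17491). H3f3b, at 4834 bp, ranked 9 among them. Ahead of it were the histone genes H2ac19 (6659 bp), H3c3 (6341 bp), H1f2 (5932 bp), H2bc8 (5888 bp) and H3c15 (5359 bp), with Vmp1, an autophagy gene (5810 bp), Actg1, which encodes a cytoplasmic actin (5801 bp), and Atic, a purine synthesis enzyme gene (5662 bp). H3c3 and H1f2 lay under the same peak, as did H2ac19 and H3c15. The stretches past H2ac19, H3c3, H1f2 and H2bc8 overlapped another annotated gene. In 46 of the 97 the stretch past the end overlapped no other annotated gene, and H3f3b ranked 5 there. The untreated list had a peak in this stretch for 7 of the 97 genes and a peak over the gene for 9. At 4 of the 97, H3f3b included, it had one in the stretch and none over the gene.

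**Figure D3:**
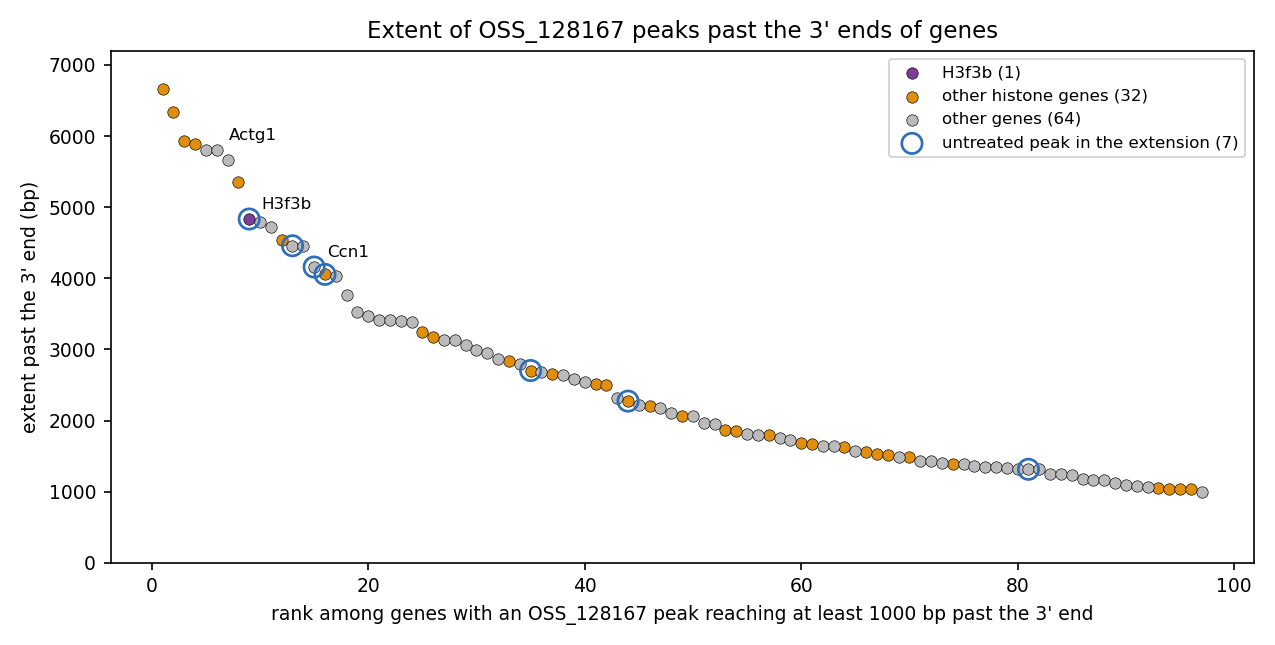
Distance in bp by which an OSS_128167 peak over the gene reached past its 3′ end, for the 97 genes where it was at least 1000 bp, in order of that distance. H3f3b is purple, 32 other histone genes are orange and the remaining genes grey; blue rings mark 7 genes with an untreated peak in the stretch past the end. H3f3b stands at 4834 bp, behind 8 genes, and has a ring.

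H3f3a (chromosome 1, 180802560 to 180813605, minus strand, 11046 bp) encodes the same protein as H3f3b but had no long peak in the OSS_128167 list. It had 5 peaks over the gene and 1 past its 3′ end, of 226 to 662 bp. Counted from the start, the first ran from 18 bp before it to 207 bp after it, with a fold of 2.46 and an FDR of 0.377. The next 3 had an FDR of at most 0.05. They lay 476 to 1061 bp into the gene (fold 3.08, FDR 0.0405), 1363 to 2024 bp (4.15, FDR 0.000258) and 2655 to 3031 bp (3.96, FDR 0.00716). So the peak at the start itself had the lowest fold of the 6, and the highest fold lay more than 1 kb inside the gene. The remaining peak over the gene lay 5256 to 5481 bp from the start (fold 2.76, FDR 0.314), and the peak past the gene lay 1003 to 1253 bp beyond the 3′ end (fold 2.93, FDR 0.155).

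Coverage of H3f3a was highest in its 5′ part. Peaks covered 49.8% of its first 3682 bp, 6.14% of the next 3682 bp and 0% of the last 3682 bp, which came to 18.6% of the whole gene, or 14.7% with peaks of an FDR of at most 0.05. In H3f3b peaks covered 0% of the first 1360 bp, 98.2% of the next 1359 bp and 100% of the last 1360 bp. Its first 1360 bp lie wholly before the start in the promoter table, and from that start to the 3′ end coverage was 100%. The parts of H3f3a are counted from its start, so the parts of the 2 genes cannot be set against each other. The untreated list had 0 peaks within 20 kb of H3f3a. No other annotated gene lay within 5 kb of H3f3a. The nearest were the long non-coding RNA genes 2900024J01Rik, 9930 bp past its 3′ end, and G370120E05Rik, 15917 bp before its start, with 0 peaks in either list.

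Copies of H3.3 elsewhere in the genome can share reads with the exons of H3f3a and H3f3b. The gene table lists 9 such copies, namely H3f3c, H3f3a-ps1, H3f3a-ps2 and 6 others with an H3mm synonym. None had a peak over it in either list, and 1 (Gm6421) had a peak within 5 kb in the OSS_128167 list. How reads that match several places were treated is not given in the sources used here.

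H1f0 (chromosome 15, 79028212 to 79030504, plus strand, 2293 bp) was covered over 84.4% in the OSS_128167 list. Its peak, from 79028570 to 79031202, was 2633 bp long, with a fold of 4.61 and an FDR of 3.73e-07. It began 358 bp after the start, so that 53.1% of the first 764 bp and 100% of the remaining gene were covered, and it ended 698 bp past the 3′ end. The untreated list had 0 peaks within 20 kb of H1f0. Among the 426 genes with a peak past the 3′ end, H1f0 ranked 127.

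Peaks past H1f0 cannot be told apart from peaks of its neighbour. Gcat, which encodes a mitochondrial enzyme of threonine breakdown, lies on the same strand and begins 369 bp after the end of H1f0. The H1f0 peak overlapped the first 329 bp of Gcat. The other 3 peaks within 5 kb of H1f0 lay inside Gcat, with a length of 1133 bp and a fold of 4.61 (FDR 7.62e-05), 283 bp and 3.09 (FDR 0.159), and 328 bp and 2.9 (FDR 0.227). These 4 were the only OSS_128167 peaks over Gcat, and they began 889, 3011 and 4143 bp after its start apart from the peak shared with H1f0. On the other side the long non-coding RNA gene Gm17753, on the opposite strand, ended 2257 bp before the start of H1f0 and had 0 peaks in either list.

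Set among all protein-coding genes in the OSS_128167 list, H1f0 ranked 71, H3f3b 104 and H3f3a 399 by covered share. Of the 21883 genes 7538 had a peak over them, with a median covered share of 1.02%, a median longest peak of 328 bp and a median highest fold of 3.08. At least 50% was covered in 149 genes (0.681%), including H1f0 and H3f3b and not H3f3a. By the longest peak over the gene H3f3b ranked 14, H1f0 110 and H3f3a 700, and by highest fold they ranked 3, 307 and 537. Longer genes need more peaks to reach a given share, and among genes within 2-fold of the length of each the ranks by covered share were 21 of 2851 for H1f0, 36 of 4379 for H3f3b and 98 of 7074 for H3f3a.

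Next to H3f3b in covered share stood Hnrnpa2b1 (69.3%) and Olfr786 (66.9%) above, and Brd2 (66%) and Tpm1 (65.7%) below. Next to H1f0 stood the ribosomal protein gene Rps12 (84.9%) and B3galt4 (84.8%) above, and the stress response gene Ddit3 (84.4%) and the tubulin gene Tuba1a (84.3%) below. Next to H3f3a stood Pcif1 (19.1%) and Gm550 (18.7%) above, and Omt2b (18.6%) and Olfr307 (18.6%) below. In longest peak, H3f3b lay between Vmp1 (7945 bp) and Lrrc75a (7655 bp) above and H2ac19 and H3c15 (7289 bp each) below. H1f0 lay between Cald1 (2635 bp) with Gcat, which shares its peak, and Tex2 (2628 bp) with Nufip2 (2616 bp). H3f3a lay between Arrdc3 and Slc9a8 (663 bp each) and Sirt1 (661 bp) with Crk (660 bp).

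The genes most like each of the 3 were sought among genes with a peak and within 2-fold in length, by the sum of the difference in covered share (as a fraction) and the difference in log2 of the highest fold. For H3f3b, with 697 candidates, the nearest were H4bc24 (covered 52.3%, fold 12.9) and H2bc23 (54%, 10.3), at distances of 0.818 and 1.14. For H1f0, with 353 candidates, they were B3galt4 (84.8%, 4.67), the ribosomal protein gene Rpl10a (83.7%, 4.83) and Cd68 (81.6%, 4.39), at 0.0205, 0.0716 and 0.0989. For H3f3a, with 1693 candidates, they were Letm2 (16.3%, 4.15), the calmodulin gene Calm2 (17.6%, 4.08) and Pcif1 (19.1%, 4.25), at 0.0236, 0.0346 and 0.0411. Among these candidates H3f3b was farther from its nearest gene than the others were from theirs. Its fold ranked 3 among all genes, so few could be near it. The limit on length also left out H3c14 (664 bp, covered 100%, fold 22.8), so nothing is read from this distance.

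Of 8 other replacement histone genes 2 had a Pol II peak over the gene in the OSS_128167 list, against 34.4% of protein-coding genes, so the count is near that of genes at large. H2ax, which encodes the histone phosphorylated at DNA breaks, was covered over 100% by a peak of 3120 bp (fold 8.12, FDR 3.43e-15). H2az1, which encodes H2A.Z, was covered over 4.8% by a peak of 1159 bp (fold 3.95, FDR 0.00168). That peak reached 1042 bp past its 3′ end and overlapped another annotated gene there. H2aj and the linker histone gene H1f10 had 3 and 2 peaks within 5 kb and none over the gene. H2az2, Macroh2a1, Macroh2a2 and Cenpa, which encodes the centromeric H3, had 0 within 5 kb. The untreated list had 0 peaks within 5 kb of these 8 genes. Of 3 germ cell linker histone genes outside the clusters, H1f7 had 1 peak within 5 kb in the OSS_128167 list (fold 3.78, FDR 0.019). H1f8 and Hils1 had 0.

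The genes of the proteins that place H3.3 had low covered shares in the OSS_128167 list. Of 9 chaperone genes 7 had a peak over the gene in that list, as did 34.4% of protein-coding genes. The 9 genes are 6187 to 131758 bp long, and both the count and the covered share depend on length. They were not set against genes of like length, so no trait of chaperone genes is read from these values. The median covered share was 0.343% over the 9 genes and 0.732% over the 7 with a peak, against 1.02% over all protein-coding genes with one. The highest folds over these 7 genes were 2.52 to 3.61, around the median of 3.08 over all genes with a peak. The longest peak over each of the 7 had a median of 270 bp and a maximum of 370 bp. The median over all protein-coding genes with a peak was 328 bp. Nasp, a histone chaperone gene, had the highest covered share (2.26%, fold 3.61), and Hira was covered over 0.289% (fold 3.1). Daxx and Asf1a had 0 peaks within 5 kb in that list. At Cabin1 and Atrx the highest fold within 5 kb lay outside the gene (4.05 and 3.59), against 3.29 and 2.52 over it. At an FDR of at most 0.05, 3 of 9 had a peak inside or within 5 kb in the OSS_128167 list (Nasp, Cabin1 and Atrx), against 15.6% of protein-coding genes, and 0 of 9 in the untreated list. At any FDR 1 of 9 had one in the untreated list, Asf1a (fold 2.65, FDR 1), against 2.71% of protein-coding genes.

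With genes bounded as in the gene table, most replication-dependent H3 and linker histone genes had higher covered shares than the 3 genes in the OSS_128167 list. Of these 18 genes 17 were covered more than H3f3a, 15 more than H3f3b and 14 more than H1f0. The count for H3f3b rests on a 5′ boundary 1535 bp before its start in the promoter table. From that start its coverage was 100%, which no gene can exceed. All 12 H3 genes of the clusters had a peak over the gene (34.4% of protein-coding genes), with a median covered share of 100%, from 49.6% at H3c8, and folds of 4.67 at H3c8 to 22.8 at H3c14. At 9 of the 12, the highest fold over the gene was below 11. H3f3b, with 20.7, therefore lay below H3c14 and above the other 11, of which H3c15 (15.1) was next. These genes are 480 to 911 bp long. At 8 of the 12 the peak over the gene also overlapped another annotated gene, as the H1f0 peak did with Gcat, and at the other 4 (H3c6, H3c7, H3c8 and H3c11) it overlapped none, as at H3f3b. Of the 6 linker histone genes of the cluster 5 were covered over at least 91.6%, with folds of 5.72 to 12.6, all above the 4.61 of H1f0, and H1f1 had no peak over it. The peak over H1f2 was the one over H3c3, and the peaks over H1f4 and H1f6 also reached another annotated gene. In the untreated list 1 of the 12 H3 genes, H3c13, had a peak over the gene (fold 2.29; 2.18% of protein-coding genes), and 0 of the 6 linker histone genes.

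**Figure D4:**
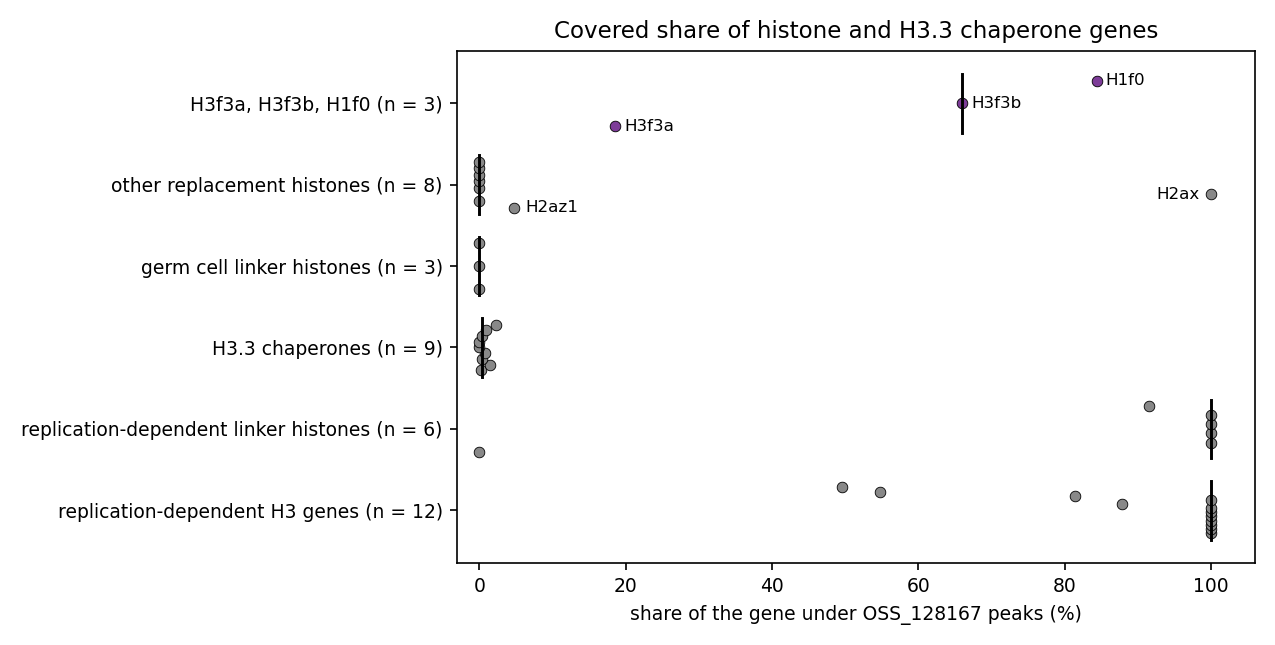
Share of each gene's length in % under OSS_128167 peaks, for H3f3a, H3f3b and H1f0 (purple) and for 5 lists of histone and H3.3 chaperone genes (grey); each point is 1 gene and each vertical bar the median of its list. H3f3a, H3f3b and H1f0 stand at 18.6%, 66% and 84.4%, all above the 9 chaperone genes, which are 6187 to 131758 bp long. Of the 18 replication-dependent genes 17, 15 and 14 lie higher than them. Genes are bounded as in the gene table, and from its start in the promoter table H3f3b was covered over 100%.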

How the data were processed

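Pol II ChIP-seq peaks of 1 OSS_128167 and 1 untreated library were analysed. The submitters' processing notes name fastp, BWA and the mm10 build, without parameters. Which caller and limits made the peaks, and how the inputs were used, is not given in the sources used here. Per the file headers, the authors' lists give for every peak a start counted from 1, an end, a length in bp as another plain number, an FDR, a p-value, a pileup (signal) and a fold enrichment (ratio). The pileup has steps of 1 in the OSS_128167 list and steps of about 0.54 in the untreated list, deposited as such. The largest p-value was 0.00999 for OSS_128167 peaks and 0.00956 for untreated peaks, so weak peaks are listed.

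Boundaries came from the RefSeq gene table of GRCm38.p6, and strand and start from the RefSeq promoter table, which holds 1 strand for 17491 of 21883 protein-coding genes. Peaks were assigned by at least 1 bp of overlap with the gene or with 5 kb on either side. Covered share is the union of peaks over the gene length. Results for some items are not reported here. With 1 library per condition no test between conditions was made. Genes and lists were chosen with earlier results of these data known. Genes named are H3f3a, H3f3b and H1f0, their neighbours, the listed histone and chaperone genes, the 3 most alike (2 for H3f3b), and the 2 just above and below each in covered share and longest peak; the genes of the comparison past the 3′ end, the 5 genes with untreated peaks outside them only, and the start of the promoter table as a boundary were chosen after values were seen. The work was done in Python 3.11.15 with pandas 2.3.3, numpy 2.4.6 and matplotlib 3.10.9, and the interval counts were checked on simulated peaks.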

Additional observations from a re-analysis of the deposited data

How the results depend on the processing

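Of 40 alternative values for 19 results, 20 kept the main value within its limits and 20 moved. For counts and ranks the limit was a fixed factor around the main value. For shares it was a binomial interval that treats each base, or each gene, as independent, so these labels are only a rough guide. The untreated counts of 0 at H3f3a and H1f0 could only stay at 0 under a stricter setting. With an FDR of at most 0.05, peaks inside or within 5 kb numbered 3 at H3f3a and 2 at H1f0 in the OSS_128167 list and 0 at H3f3b in the untreated list, the covered share of H3f3a was 14.7%, and the share of protein-coding genes with a peak was 15.6% for OSS_128167 and 0.142% for untreated peaks. With a window of 1 kb, or with the gene alone, H3f3b and H1f0 had 1 peak each in the OSS_128167 list and H3f3b had 0 in the untreated list. At a fold of at least 5, coverage was 0% at H3f3a and H1f0 and still 66% at H3f3b. From the start of the promoter table, coverage of H3f3b was 100%. Among genes within 2-fold in length the ranks by covered share were 98, 36 and 21 for H3f3a, H3f3b and H1f0. Joining peaks across 500 bp extended the H3f3b domain to 7284 bp past the 3′ end, and among stretches free of other genes H3f3b ranked 5 rather than 9. The alternatives with the promoter table start and with free stretches were chosen after seeing the data. An overlap of 50% of the shorter peak left H3f3b as the 1 gene where the lists overlap. No paired analysis was possible because each condition had 1 library, and no replicate could be left out. Depth is unknown, so an unlisted peak does not show that Pol II was absent.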
